A study of Mus musculus with 8 samples.

Results

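In day 6 mouse retinal organoids in which the m6A methyltransferase Mettl3 can be degraded, 23 genes were higher after 24 h of the degrader dTAG-13 while standing near the 0 h level after 8 h. They are 23 of the 10912 genes that could be called at 24 h, or 0.211%, and 5.13% of the 448 genes called higher at that time. The genes were chosen from the measured values. A gene had to be at least 1.5-fold above 0 h at 24 h, with a 24 h interval wholly above the 0 h interval, and its log2 ratio at 8 h had to lie between -0.4 and 0.4. It also needed a unique single name, 1 FPKM and 10 estimated counts in 1 condition. FPKM is a level scaled to transcript length and sequencing depth, and each log2 ratio is of FPKM + 0.1, which understates the change of low genes. Numbered zinc finger, ribosomal protein and histone names were left out, which removed Hist1h2ap and Hist1h2ag.

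The organoids came from an Rx:GFP mouse line, a reporter line for the eye-field gene Rax, with the FKBP12F36V-HA degron tag on both endogenous Mettl3 alleles. All groups, the 0 h control included, carry the tag, and all were collected at day 6. dTAG-13 was given at 125 nM for 1, 8 or 24 h, or not at all (0 h), with 2 samples for each time and 8 in all. Per the labels, the medium also held 0.1 µM of a compound given as AGN, and all cells were collected together, so the 0 h control is of the same age. No untagged line treated with dTAG-13 was analysed here, so effects of the compound and of losing Mettl3 cannot be told apart. The deposited tables hold 1 pooled value per condition with a lower and an upper bound, so no replicate values, SD or p-values are given. A call in either direction therefore means a change of at least 1.5-fold with intervals that do not overlap. Mettl3 mRNA was 19.45 FPKM at 0 h (interval 10.6 to 28.3) and 17.0 at 24 h (8.50 to 25.5), with overlapping intervals. The degron works on the protein, whose level these tables do not give, so the mRNA is no check of the depletion.

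Mettl3 is the catalytic subunit of the complex that places N6-methyladenosine (m6A) on messenger RNA, mostly at adenosines within a short consensus whose common form is GGACT. The mark is read by proteins that shorten the life of many transcripts. It is densest in long internal exons and around stop codons, since exon junction complexes keep the methyltransferase away from sequence close to splice sites. Genes with few coding exons per length of coding sequence therefore tend to carry more of it. The retinal organoid at this stage is mostly neuroepithelium that forms the early eye field and optic vesicle.

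The name "raised only at 24 h" describes these genes in part. At 8 h, 19 of the 23 were above 0 h and 4 below, with a median log2 ratio of 0.24 (0.01 over all 10911 genes tested at 8 h). These are values the rule used, and the 8 and 24 h ratios share the 0 h libraries, so that a low 0 h value raises both; nothing is read from the contrast with all genes. The ratio was 0.2 or more in 16 of them. None was called at 8 h, where 3.87% of genes were called higher and 0.77% lower, and the 8 h intervals of all 23 overlapped those at 0 h, as the limit on the 8 h ratio largely imposes. Only 9 of the 23 had a 24 h interval wholly above their own 8 h interval with a 1.5-fold difference, once the tables were put on 1 scale by their shared 0 h libraries. These are Nxph4, Tmem63a, Col6a1, Zmat1, Gsn, 3632451O06Rik, Ier3, Slc2a3 and Scg5. Tmem63a is among them by FPKM only, since its estimated counts were 77.0 at 8 h and 79.6 at 24 h. Such a step from 8 to 24 h was called for 18 genes in the whole series, 0.166% of the genes tested. That count takes only genes with 1 FPKM at 0 or 8 h in the 8 h table, which leaves out Nxph4, Col6a1 and Zmat1. The rest of the 9 are among the 18, which the rule in part fixes. For the other 14 members the intervals at 8 and 24 h overlapped.

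The values that chose the members ran from a log2 ratio of 0.61 (Trappc3) to 1.77 (Nxph4) at 24 h, with a median of 0.81. The change in FPKM was at least 2-fold in 5 genes, Nxph4, Tmem63a, Col6a1, Zmat1 and Gsn. For Tmem63a the estimated counts did not rise (log2 ratio -0.17). Levels were modest: the median was 6.42 FPKM at 0 h and 11.4 at 24 h, against 14.4 at 0 h over all genes tested, and 9 members stayed under 5 FPKM at 24 h. The intervals were separated by under 5% of the 0 h level in 7 members, least in Rtn4ip1 (1.13%). These are Vtn, Rimkla, Apln, Scg5, Rtn4ip1, Wls and Trappc3.

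**Figure D1:**
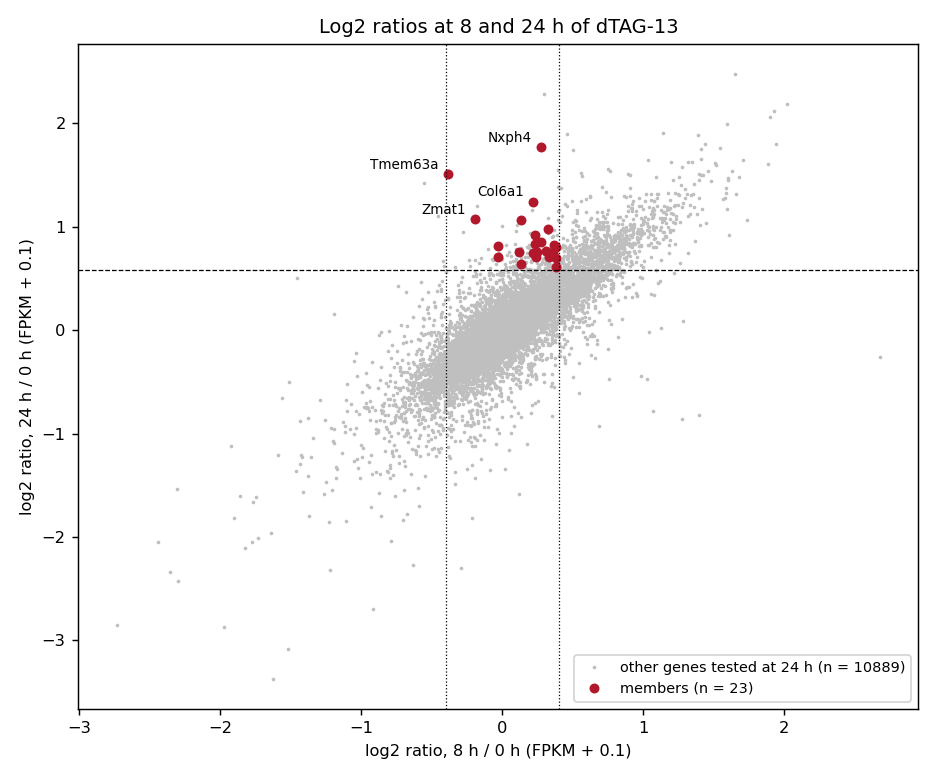
Log2 ratio at 8 h (horizontal axis) against log2 ratio at 24 h (vertical axis), both of FPKM + 0.1 and both against the same 0 h libraries, for 10912 genes. The 23 members (red) lie above the dashed line at 1.5-fold and between the dotted lines at -0.4 and 0.4, most of them in the right part of that band. Grey points in the same area lack separated intervals.

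Most genes that were called higher at 24 h also had a ratio past the limit at 8 h, against the same 0 h libraries, so the calls are not independent. Of the 448, 307 were also called higher at 8 h, a further 118 had an 8 h log2 ratio of 0.4 or more without being called, and none had one of -0.4 or less. Their median log2 ratio at 8 h was 0.80. Values near the limits show how the members shade into the rest. Trappc3 (0.61), Wls (0.64) and Ddit4 (0.70) lay just inside the 24 h threshold, and Rab31 (0.57) was the nearest gene outside. At the upper 8 h limit, Ddit4 (0.39), Spry3 (0.38) and Trappc3 (0.38) lay just inside. Rasl10b (0.41), Parp8 (0.42) and the eye-field factor Tbx2 (0.42) lay just outside.

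The 1 h libraries were not used to choose the members, although they are compared with the same 0 h libraries. At 1 h none of the 17 members that passed the filter on low values was called higher, where 0.00935% of the 10690 genes tested were, and 2 were called lower, where 0.206% were. Those 2 were Ier3 and Ddit4. Over all 23 members, those that failed that filter included, the median log2 ratio at 1 h was -0.07, with 8 above 0 and 15 below. Over the 10690 genes that passed it, the median was 0.00 and 49.94% were above 0. Against the 1 h libraries in place of 0 h, 19 of the 23 were called higher at 24 h. Of the 10608 genes that also passed the filter on low values at 1 h, 4.36% were. The 19 include Nxph4, Tmem63a, Col6a1, Zmat1, Nfatc1 and Spry3, which did not pass that filter. The count and the share thus rest on unlike sets of genes. The comparison uses the same 24 h libraries that chose the members, so it repeats that choice with other controls and is no independent sample. The 4 exceptions were Gsn, Sox21, Scg5 and Wls.

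**Figure D2:**
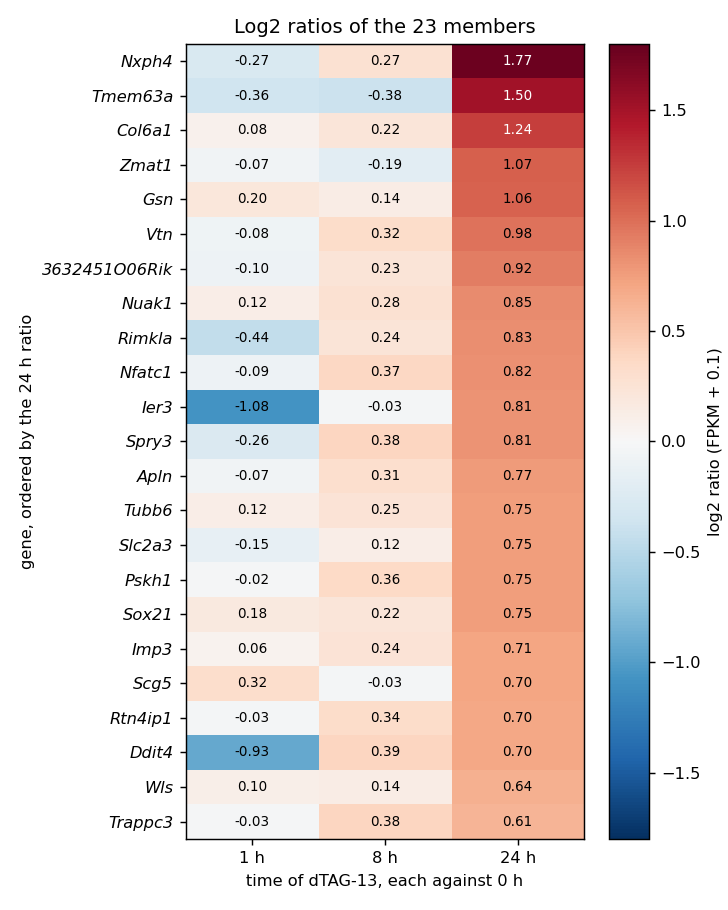
Log2 ratio of FPKM + 0.1 against 0 h for the 23 members (rows, ordered by the 24 h ratio) at 1, 8 and 24 h (columns), with blue for lower and red for higher. The 24 h column runs from 0.61 to 1.77, the 8 h column from -0.38 to 0.39, and the strongest blue cells are Ier3 (-1.08) and Ddit4 (-0.93) at 1 h.

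Ier3 and Ddit4 were the only members called lower at one time and higher at another, and both are early-response genes. Ier3 encodes a short-lived protein that affects cell survival and is induced by many stimuli. Ddit4 encodes REDD1, an inhibitor of mTORC1 signalling that is induced by hypoxia, energy stress and DNA damage. The sequence upstream of their starts is shown because both belong to the list of hypoxia genes discussed here. The stretches are RefSeq sequence of GRCm38.p6, written 5′ to 3′ on the gene's strand and ending before the first base of any annotated transcript of the gene. Capitals mark ACGTG or GCGTG on either strand, the core letters of the hypoxia response element. The first stretch is chr17:35821463-35821683 on the plus strand and the second is chr10:59951835-59952020 on the minus strand.
Ier3: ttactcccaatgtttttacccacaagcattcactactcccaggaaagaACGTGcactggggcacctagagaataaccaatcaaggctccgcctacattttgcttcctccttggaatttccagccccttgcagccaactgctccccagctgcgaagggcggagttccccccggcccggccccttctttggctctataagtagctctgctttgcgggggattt
Ddit4: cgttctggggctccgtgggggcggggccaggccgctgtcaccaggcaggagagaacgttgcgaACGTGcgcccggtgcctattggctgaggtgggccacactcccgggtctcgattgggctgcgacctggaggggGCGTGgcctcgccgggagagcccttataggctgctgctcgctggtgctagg

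The Ier3 stretch holds 1 such match and the Ddit4 stretch 2. These letters are common, and the members did not stand apart from other genes. Within windows of 250 bases before to 50 after each RefSeq start, ACGTG was present on either strand in 5 of the 18 members with a window (27.8%, exact binomial interval 9.70 to 53.5), against 26.65% of the windows of all genes tested. GCGTG was present in 9 of 18 (50%, 26.0 to 74.0), against 54.2%. Among all 27022 windows in the table the shares were 19.6% and 32.65%. A match of letters is a description and no evidence that a factor binds there.

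Both genes also carry the GGACT core of the m6A consensus in their annotated transcripts. Ier3 has 2 occurrences in its 1131-base transcript, 1 in the coding sequence and 1 in the 3′ UTR, and Ddit4 has 4 in 1755 bases, 2 in each. The coding occurrences and the Ier3 3′ UTR occurrence are shown with 10 bases on each side, GGACT in capitals, from GENCODE M21. Methylation was not measured here.
Ier3 coding: cggagtcctcGGACTatgcgctgga
Ier3 UTR: ccgggtggtaGGACTcccagcttgg
Ddit4 coding, first: tggagagctcGGACTgcgagtccct
Ddit4 coding, second: tgctgcgtctGGACTctcgcctctg

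Ier3 (chr17:35821684-35822923, plus strand) was 6.32 FPKM at 0 h (interval 4.48 to 8.17) and 2.94 at 1 h (1.87 to 4.01) in the 1 h table. It was 6.26 at 8 h (4.56 to 7.95) and 11.4 at 24 h (8.61 to 14.1), against 6.42 at 0 h (4.68 to 8.17) in the 24 h table. The 1 h interval lay below all others and the 24 h interval above all others, while 0 and 8 h overlapped. The log2 ratios were -1.08, -0.03 and 0.81 at 1, 8 and 24 h.

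Ddit4 (chr10:59949669-59951834, minus strand) was far more abundant. It was 137.7 FPKM at 0 h (105 to 170.0) and 72.4 at 1 h (52.6 to 92.2) in the 1 h table. It was 182 at 8 h (144.5 to 220) and 227 at 24 h (181 to 273), against 139.9 at 0 h (109 to 171) in the 24 h table. The 1 h interval again lay below the 0 h interval, but the 8 h interval overlapped both 0 and 24 h, with a log2 ratio of 0.39 at 8 h. The Ddit4 locus in the tables overlaps the expressed genes Ascc1 and Anapc16, and whether the counting used strand is not given in the sources used here.

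Slc2a3 completes the hypoxia genes among the members. It encodes a high-affinity glucose transporter of neurons and early embryos and was the most abundant member. Its level was 273.5 FPKM at 0 h (219 to 328), 242 at 1 h (191 to 294), 296 at 8 h (239 to 353.5) and 461 at 24 h (370 to 551). Only the 24 h interval stood apart from the others. The other main glucose transporter, Slc2a1, was 328 FPKM at 0 h and 308 at 24 h (log2 ratio -0.09, not called). Slc2a3 was the only 1 of 8 facilitative glucose transporter genes tested to be called at 24 h. This family, like the other families set beside members here, was chosen after the values were seen. Each such family holds a member, so at least 1 call in it was fixed. Over all genes tested, 4.11% were called higher and 1.57% lower, and no family count is read as a result.

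The list of hypoxia and HIF target genes held 52 genes tested at 24 h, of which 8 were called higher and none lower, where 4.11% of all genes tested were called higher and 1.57% lower. The list's median log2 ratio was 0.27, against 0.01 over all genes. Besides the 3 members, the genes called higher were Ppp1r3c (1.54), Adm (1.49), Bhlhe40 (1.14), Cited2 (0.82) and Slc16a3 (0.75). These 5 were not members because their 8 h log2 ratios were between 0.55 and 0.76. Ppp1r3c targets a phosphatase to glycogen, Adm encodes the vasodilator peptide adrenomedullin, and Slc16a3 exports lactate. At 1 h, 8 of 51 genes of the list were called lower and none higher, with a median of -0.18. Adm (-1.55), Ppp1r3c (-1.53) and Bhlhe40 (-1.14) were among them with Ier3 and Ddit4, while Slc2a3 (-0.15) was not called. Of the genes of glycolysis in the list, Pgk1 (0.00), Ldha (-0.09), Eno1 (-0.46) and Hk2 (0.42) were not called at 24 h. Aldoc (0.70, and -0.15 at 8 h) was not called against 0 h either, but was 1 of the 18 genes called higher from 8 to 24 h. The comparisons at 1 and 24 h share the 0 h libraries. The list was drawn up with earlier results of these data known and is no independent evidence.

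Ddit4 was also the single gene called higher at 24 h of 34 tested in the integrated stress and unfolded protein response. There 9 were called lower, among them Slc7a11 (-2.69), a cystine importer, and Phgdh (-0.97), the entry enzyme of serine synthesis. The shares over all genes tested were 4.11% higher and 1.57% lower. Of the sestrins, which like REDD1 restrain mTORC1, Sesn2 had a log2 ratio of -0.53 and Sesn1 of 0.34, and neither was called.

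**Figure D3:**
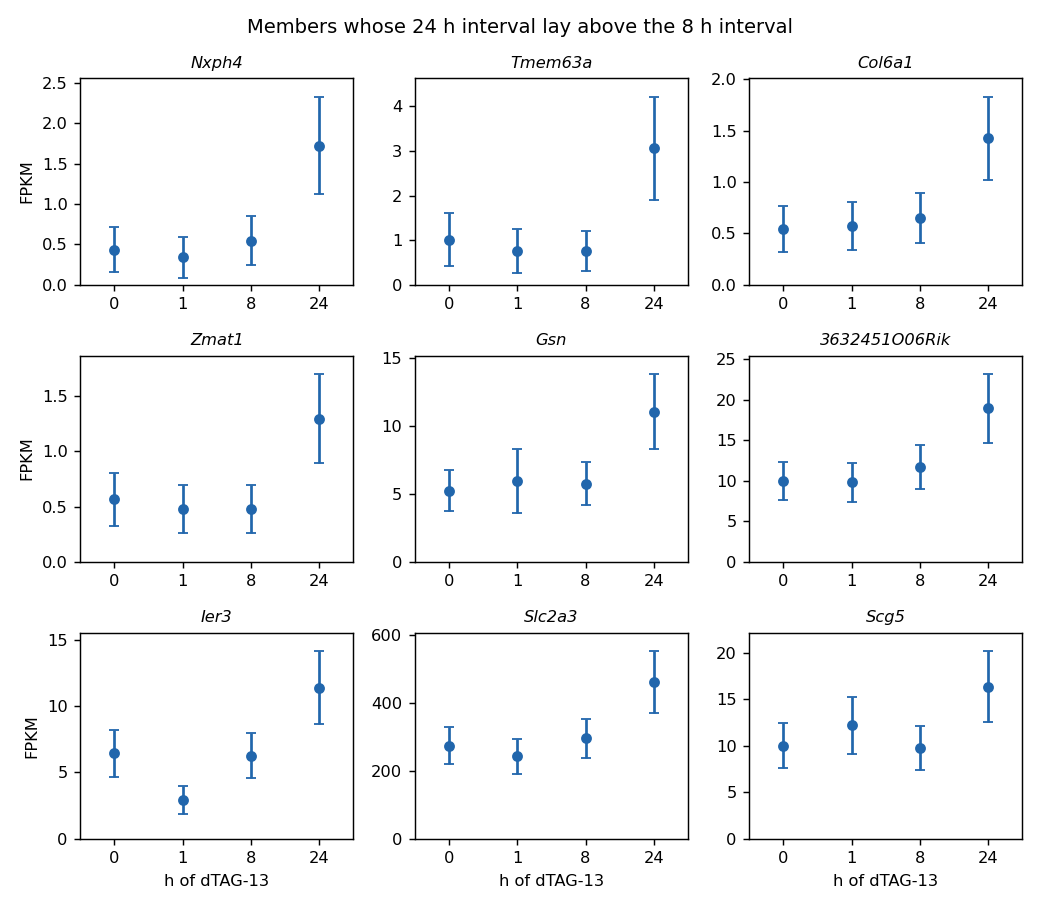
FPKM with the deposited interval (bars) at 0, 1, 8 and 24 h of dTAG-13 for the 9 members whose 24 h interval lay above the 8 h interval. The 0 h value is that of the 24 h table and each other point comes from its own table; for Ier3 the 1 h point (2.94 FPKM) lies below the rest, and for all 9 genes the 24 h point is the highest.

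The members are taken here by role, a grouping made by hand after the values were seen. Of the members that encode secreted proteins or proteins that act in secretion, Nxph4 (chr10:127525473-127534559, minus strand) encodes a neurexophilin, a secreted ligand of neurexins. It had the highest 24 h ratio, 1.77, from a low level: 0.435 FPKM at 0 h (0.151 to 0.720), 0.339 at 1 h, 0.546 at 8 h (0.240 to 0.851) and 1.72 at 24 h (1.12 to 2.33). These rest on 20.3 and 80.1 estimated counts at 0 and 24 h. The 24 h interval lay above all the others. Of the neurexins, Nrxn2 was also called higher at 24 h (log2 ratio 0.82, 0.63 at 8 h).

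Col6a1 (chr10:76708792-76726168, minus strand), a chain of the microfibrillar collagen VI, was 0.545 FPKM at 0 h (0.323 to 0.768), 0.571 at 1 h, 0.649 at 8 h (0.409 to 0.889) and 1.425 at 24 h (1.02 to 1.83). Its partner chain Col6a2 had log2 ratios of -0.19 at 8 h and 0.57 at 24 h. It was not called against 0 h, but was 1 of the 18 genes called higher from 8 to 24 h (log2 ratio 0.76). Of 21 collagen genes tested, Col27a1 was the other called higher at 24 h (0.94), and Col9a1 was called lower (-0.92). In the extracellular matrix list, 3 of 55 genes were called higher at 24 h (Col6a1, Adamts1 and Emilin1) and 2 lower (Col9a1 and Frem2). Over all genes tested, 4.11% were called higher and 1.57% lower. The list median was 0.16. Vtn, which encodes the adhesive glycoprotein vitronectin, went from 1.503 FPKM at 0 h (0.920 to 2.08) to 1.90 at 8 h and 3.06 at 24 h (2.16 to 3.96), with the 24 h interval overlapping that at 8 h.

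Apln encodes the peptide apelin, a ligand in vascular development. It was 2.28 FPKM at 0 h (1.65 to 2.90), 2.83 at 8 h and 3.94 at 24 h (3.01 to 4.88). Apela, the other ligand of the apelin receptor, had a 24 h ratio of -0.21 and was not called. Scg5 encodes a chaperone of a prohormone convertase in neuroendocrine cells, and was 10.01 FPKM at 0 h (7.596 to 12.4), 12.2 at 1 h (9.09 to 15.3), 9.75 at 8 h (7.39 to 12.1) and 16.4 at 24 h (12.6 to 20.1). Its 1 h and 24 h intervals overlapped.

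Wls encodes Wntless, the cargo receptor that carries Wnt proteins to the cell surface. Its levels were 25.2 FPKM at 0 h (19.8 to 30.5), 26.6 at 1 h, 27.6 at 8 h (21.2 to 33.9) and 39.3 at 24 h (31.2 to 47.5), so the 8 and 24 h intervals overlapped. Wls was the 1 gene called higher of 38 tested in the Wnt list at 24 h, where 4.11% of all genes were called higher and 1.57% lower. The 3 called lower were the receptor gene Lgr5 (-0.77), the ligand gene Wnt8b (-0.83) and Dkk3 (-1.14), and the list median was 0.07.

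Of the nuclear factors, Sox21 is a SoxB repressor of neural progenitors, Nfatc1 a calcium-regulated transcription factor and Zmat1 a zinc finger protein. Sox21 was 9.47 FPKM at 0 h (7.48 to 11.5), 12.0 at 1 h (7.59 to 16.3), 10.99 at 8 h (8.73 to 13.2) and 16.0 at 24 h (12.7 to 19.2). Its values thus overlapped from 1 h to 24 h. This 0 h value is that of the 24 h table. In the 1 h table the same 0 h libraries gave 10.54 FPKM (7.653 to 13.42), which overlaps the 24 h interval. The Sox21 locus overlaps the long non-coding gene Gm4675 on the opposite strand. Of 12 Sox genes tested, Sox11 was the other called higher at 24 h (0.62), where 4.11% of all genes were. Sox3 (0.57) and Sox1 (0.13) were not called.

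Nfatc1 went from 0.955 FPKM at 0 h (0.673 to 1.24) to 1.26 at 8 h and 1.76 at 24 h (1.31 to 2.21). Zmat1 was 0.565 at 0 h (0.328 to 0.802), 0.481 at 8 h (0.264 to 0.699) and 1.30 at 24 h (0.898 to 1.70). The Zmat1 24 h interval stood above the others.

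Of the signalling proteins, Nuak1 and Pskh1 are kinases and Spry3 belongs to the Sprouty family of receptor tyrosine kinase inhibitors. Nuak1, an AMPK-related kinase with roles in axon branching, was 17.7 FPKM at 0 h (14.2 to 21.1), 19.0 at 1 h, 21.4 at 8 h (17.0 to 25.8) and 31.9 at 24 h (24.6 to 39.3). The 8 and 24 h intervals overlapped slightly. Of 15 NUAK and other AMPK-related kinases tested, Mark1 was also called higher at 24 h (0.68, and 0.55 at 8 h), where 4.11% of all genes were. Nuak2 had a ratio of 0.17 and was not called. Pskh1 went from 18.4 FPKM at 0 h (14.7 to 22.0) through 23.6 at 8 h to 31.0 at 24 h (24.96 to 37.0). Spry3, which the tables place on the unplaced scaffold GL456233.1, went from 0.975 (0.685 to 1.26) through 1.30 to 1.78 FPKM (1.33 to 2.23). Spry1 (-0.19) and Spry2 (-0.38), both more abundant, were not called at 24 h.

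The cytoskeletal members were Gsn and Tubb6. Gsn (chr2:35256380-35307892, plus strand) encodes gelsolin, which severs and caps actin filaments, and was 5.25 FPKM at 0 h (3.71 to 6.79), 5.94 at 1 h (3.61 to 8.27), 5.76 at 8 h (4.15 to 7.37) and 11.05 at 24 h (8.29 to 13.8). The intervals at 0, 1 and 8 h overlapped, and the 24 h interval lay above those at 0 and 8 h but, with the tables on 1 scale, overlapped the wide one at 1 h. Of 5 genes of the gelsolin family tested, no other was called, where 4.11% of all genes were called higher and 1.57% lower. The others had ratios from -0.68 (Capg) to 0.11 (Svil). Tubb6, a beta-tubulin, was 66.2 FPKM at 0 h (53.3 to 79.0), 70.6 at 1 h, 78.2 at 8 h (63.3 to 93.1) and 112 at 24 h (90.2 to 133). Tubb5 (0.25) and Tubb4b (0.36) were not called.

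Imp3, a protein of the U3 snoRNP that processes ribosomal RNA, was 49.96 FPKM at 0 h (39.6 to 60.3), 59.0 at 8 h and 81.8 at 24 h (65.5 to 98.2). It was the only 1 of 17 U3 snoRNP genes tested to be called higher at 24 h, where 4.11% of all genes were. The others were not called, with ratios from -0.56 (Rrp9) to 0.53 (Utp3, which was called higher at 8 h). Trappc3, a core subunit of the TRAPP vesicle tethering complex, went from 45.2 (35.9 to 54.6) through 58.9 at 8 h to 69.1 FPKM at 24 h (55.35 to 82.8), and was the only 1 of 13 TRAPP genes called. Rtn4ip1, a mitochondrial oxidoreductase, went from 4.76 (3.52 to 5.99) to 7.80 FPKM (6.05 to 9.56). The deposited Rtn4ip1 locus runs past the annotated end of the gene and spans the protein-coding gene Crybg1 on the opposite strand.

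Rimkla, which joins N-acetylaspartate to glutamate, was 1.86 FPKM at 0 h (1.28 to 2.43), 1.32 at 1 h (0.857 to 1.78), 2.196 at 8 h and 3.38 at 24 h (2.52 to 4.23). Its relative Rimklb had a ratio of 0.50 and was not called. The deposited Rimkla locus also runs past the annotated end of the gene, and holds the protein-coding gene Zmynd12 on the opposite strand. The gene named 3632451O06Rik, which the annotation calls Armh4, was 9.94 FPKM at 0 h (7.62 to 12.2), 11.7 at 8 h (8.98 to 14.35) and 18.9 at 24 h (14.7 to 23.1), with the 24 h interval above that at 8 h.

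Tmem63a (chr1:180942344-180975112, plus strand), a mechanosensitive ion channel, differs from the other members because its FPKM and its estimated counts disagree. In FPKM it was 1.01 at 0 h (0.409 to 1.61), 0.755 at 1 h, 0.749 at 8 h (0.302 to 1.20) and 3.06 at 24 h (1.91 to 4.21), a log2 ratio of 1.505 at 24 h. In estimated counts it was 89.85 at 0 h and 79.6 at 24 h, a log2 ratio of -0.17. FPKM divides by a transcript length that depends on how reads are shared among isoforms, and the part of this in the result was not tested. The deposited values thus show no rise in reads for Tmem63a, the member with the second highest FPKM ratio. For Scg5 the count ratio was 0.54, under the 1.5-fold threshold. In the other 21 members the estimated counts were also at least 1.5-fold higher at 24 h (8.61% of genes tested). The counts come from the same libraries and reads that chose the members, so this compares the units and is no further support.

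**Figure D4:**
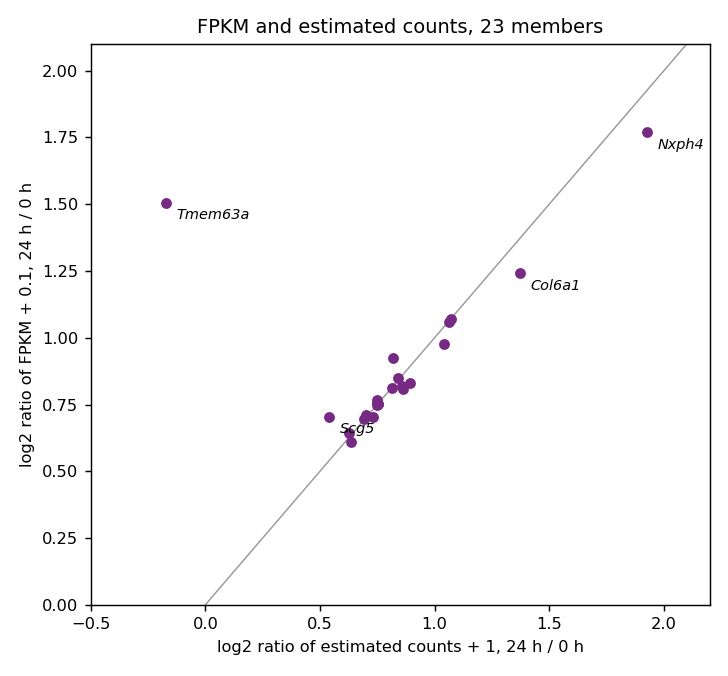
Log2 ratio at 24 h of estimated counts + 1 (horizontal axis) against that of FPKM + 0.1 (vertical axis) for the 23 members, with the line of equal ratios in grey. All lie close to the line except Tmem63a, at -0.17 in counts and 1.505 in FPKM.

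Coding exon density, here junctions between exons per kilobase of coding sequence, was not used to choose the genes. It had a median of 3.41 in the 22 members with an annotation (quartiles 2.12 to 6.62), between 6.24 over 10600 genes tested and 1.54 over 306 genes raised at both 8 and 24 h. In the 43 genes lowered at 24 h and near 0 h at 8 h the median was 5.97. The value depended on how the late rise was defined. Among the 9 members with a 24 h interval above the 8 h interval it was 6.09, close to that of all genes, and among the other 13 annotated members it was 3.32. The range was wide in both: Sox21 and Imp3 have a single coding exon, Col6a1 has 11.1 and Tmem63a 8.71 junctions per kilobase. The groups are small, and no test of the difference was made. Transcript length (median 3202 bases against 3026) and GGACT density (1.15 per kilobase against 1.06) lay close to those of all genes tested.

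**Figure D5:**
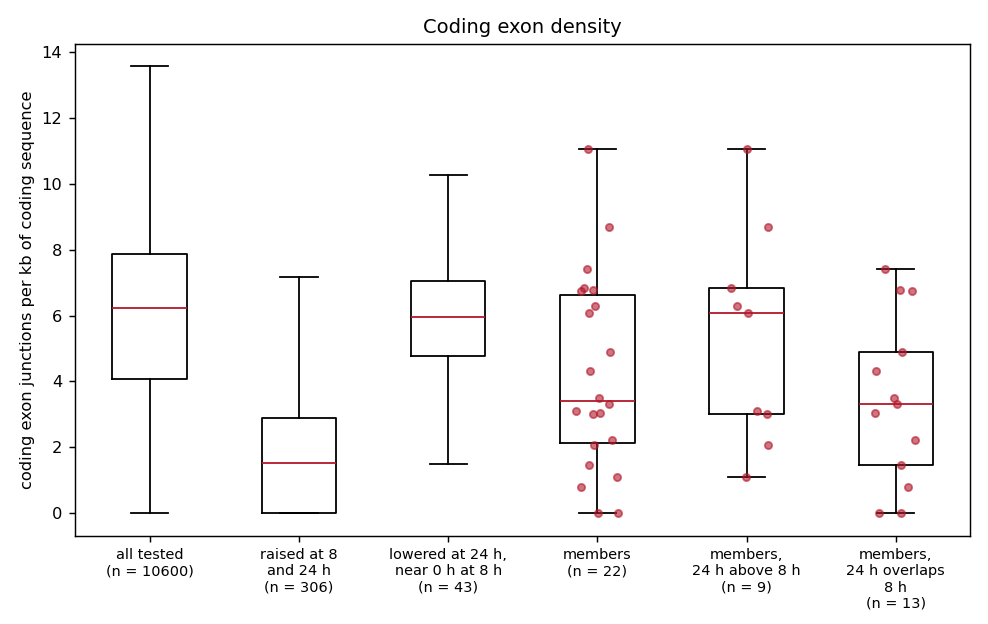
Coding exon junctions per kilobase of coding sequence in 6 sets of genes (boxes, quartiles with the median in red; whiskers, the farthest value within 1.5 times the box; points, single members). The median is 6.24 for all genes, 1.54 for genes raised at both times and 3.41 for members, which divide into 6.09 and 3.32 by whether the 24 h interval lay above that at 8 h.

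None of the members, which are 0.211% of all genes tested, belonged to the marker lists of cell types or to the list of eye-field and retinal progenitor genes. Of the 52 genes tested in that list, 7 were called higher at 24 h and 5 lower, where 4.11% and 1.57% of all genes were. Those 7 had 8 h log2 ratios of 0.42 to 1.06, past the limit for members. The rule imposes this on any gene called higher at 24 h that is not a member, so nothing is read from it. The levels of cell type markers also differed between 0 and 24 h. The summed level of retinal progenitor markers was 669.8 FPKM at 0 h and 882 at 24 h, that of retinal pigment epithelium markers 60.6 and 97.9, and that of pluripotent cell markers 334 and 219.8. The sum for neuron markers was 10.8 and 9.43, and the defining pigment epithelium genes Tyr and Rpe65 were under 0.1 FPKM. In bulk samples, a change in the share of a cell type and a change in RNA per cell cannot be told apart, and the part of either in the members' levels was not tested. Total estimated counts per condition ran from 31361518 to 32562075.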

How the data were processed

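The authors deposited 3 pairs of tables, each setting 0 h beside 1, 8 or 24 h. Per the file headers, 1 table of a pair gives FPKM and its interval bounds, the other gives estimated counts and their variance, with 1 column per condition pooled over 2 samples. Polyadenylated RNA was read as paired ends, per the labels' protocols. The submitters' processing notes name Cufflinks 2.2.1, Cuffdiff and mm10. The level of the bounds is not given in the sources used here.

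Ratios, calls and the filters (1 FPKM and 10 estimated counts in 1 condition, status OK) were computed in Python 3.11.15 with pandas 2.3.3. Comparisons across tables were rescaled by the median 0 h ratio (0.9841 for the 1 h table, 0.9965 for the 8 h table). Estimated counts were compared after adding 1. Pooled columns allow no model fit, and none was run. Exon properties came from GENCODE M21 and promoters from RefSeq GRCm38.p6. The rule was tested on simulated data.

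Genes were named by rule: all members on a list, the largest ratios, the highest levels, those called at 1 h, those nearest the limits, other called hypoxia genes, and Mettl3. All 23 members were then described. Families set beside members and the 2 genes with printed sequences were chosen after values were seen. Members and lists were chosen with earlier results of these data known. In all, 11 promoter motifs were searched, of which only ACGTG and GCGTG are described above. For each of the 11, the share over all genes tested lay within the members' exact binomial interval, which is wide with 18 windows. The 2 h treatment in the labels was not analysed here. All samples carry 1 batch entry in the labels, so no comparison crosses batches as labelled.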

Additional observations from a re-analysis of the deposited data

Results flagged for a closer look

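Ier3 and Ddit4 stood on opposite sides of the 0 h level at 1 h and 24 h. The log2 ratio of Ier3 was -1.08 at 1 h and 0.81 at 24 h. That of Ddit4 was -0.93 at 1 h and 0.70 at 24 h. In both genes each time was called, with intervals that did not overlap those at 0 h. Each condition has 1 pooled value, so the difference was not tested, and both times are compared with the same 0 h libraries.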

How the results depend on the processing

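The number of members was set mainly by the limits of the rule. It was 14 with at least 5 FPKM, 5 with a 24 h threshold of 1 and 6 with an 8 h limit of 0.2 (Ier3, Gsn, Scg5, Wls, Slc2a3 and Zmat1). It was 141 where the 8 h limit was replaced by not being called at 8 h, 151 with no interval criterion, and 9 where the 24 h interval also had to lie above that at 8 h, an alternative chosen after seeing the data. Other settings gave 21 to 26 genes; with a pseudocount of 1, 20 of the 26 were members, and with estimated counts in place of FPKM, 19 of the 23 were. Members called higher at 1 h, 0 as reported, were 1 with no filter on low values and 3 with no interval criterion. Members called lower at 1 h, 2 as reported, were 0 with the threshold of 1, 1 with the 8 h limit of 0.2, 4 where not called at 8 h replaced the limit, 7 with no interval criterion and 1 without loci that overlap another expressed locus, which leaves out Ddit4. Members above the 1 h libraries at 24 h, 19 as reported, were 10 with at least 5 FPKM, 4 with the threshold of 1, 3 with the 8 h limit of 0.2, 100 where not called at 8 h replaced the limit and 110 with no interval criterion. The 8 h limit of 0.2 leaves 6 members, among them Gsn, Scg5 and Wls, which are 3 of the 4 exceptions. The median coding exon density, 3.41 as reported, was 6.19 with the 8 h limit of 0.2, 6.84 with the threshold of 1 and 6.09 where the 24 h interval also lay above that at 8 h. The share of windows with ACGTG was 0 with the threshold of 1. The median log2 ratio at 1 h, -0.07 as reported, was 0.02 both with at least 5 FPKM and with the 8 h limit of 0.2. No paired analysis was possible because the deposited columns are pooled over replicates, and for the same reason no sample could be left out.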
